A study of Mus musculus with 66 samples.

Results

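The poly(C)-binding protein family of the mouse consists of Pcbp1, Pcbp2, Pcbp3 and Pcbp4. All 4 genes were listed among the 15856 genes of the 3'READS table, with 10 of its 59578 polyadenylation sites (pAs). Only Pcbp2 was listed in the RNA-seq table, where it had 4 of the 15033 transcripts. The family was chosen by gene symbol because many Pcbp2 transcripts ended in an intron in cells with Paf1 or Cdc73 knocked down, and the question asked of Pcbp1, Pcbp3 and Pcbp4 was whether the same happens in them. The 3'READS values of Pcbp2 are therefore given as a description, without a test.

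The RNA came from C2C12 cells, a line of mouse myoblasts, kept as myoblasts. All cells received 50 nM siRNA for 48 h, either a non-targeting control (siCtrl) or an siRNA to 1 subunit of the Paf1 complex (Paf1C). These were Paf1, Cdc73 and Ski8, the last listed as Wdr61. Paf1C travels with RNA polymerase II and acts in transcript elongation and 3' end formation. Each assay had 7 libraries, with siCtrl, siPaf1 and siCdc73 in batches 1 and 2 and siSki8 in batch 2 only. No cell was a knockout, and the labels name no second siRNA per gene or separate clones. Nothing in the labels beyond the batch says that libraries came from separate cultures, so p-values measure the spread between these libraries.

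Pcbp proteins, also known as hnRNP E proteins, carry K-homology (KH) domains with which they bind C-rich single strands. They take part in mRNA stability, splicing, translation and 3' end processing, and Pcbp1 and Pcbp2 also carry iron to ferritin and to iron enzymes. Pcbp1 has no intron and is thought to have arisen by retrotransposition of a processed Pcbp2 transcript. A pA is the place where the nascent transcript is cut and a poly(A) tail is added, usually downstream of an AATAAA hexamer or a variant of it. A pA inside an intron, if used, removes every exon behind it from the mRNA.

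The members differ in gene structure. In the mm9 annotation, Pcbp1 (chr6:86474493-86476165, minus strand) has 1 exon. Pcbp2 (chr15:102301063-102330490, plus strand) has 15 exons, Pcbp3 (chr10:76224602-76424533, minus strand) has 16 and Pcbp4 (chr9:106356188-106366338, plus strand) has 13. The coding sequences were 82.3% identical between Pcbp1 and Pcbp2 over the aligned bases, 74.4% between Pcbp2 and Pcbp3 and 68.1% between Pcbp2 and Pcbp4. The 40 bases before each of the 10 pAs occurred 1 time in the mm9 genome, so no member's window had a second exact copy.

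The sequences just before the pAs are shown to compare the intronic pA of Pcbp2 with the sites its paralogs use. Each line gives the 30 bases from 33 to 4 bases before the listed position, 5′ to 3′ on the strand of the gene, read from mm9, with AATAAA or ATTAAA in capitals.
Pcbp2, intron 5, chr15:102305172-102305201, plus strand: aaaAATAAAgttcatgttaagtaattgggc
Pcbp2, most used 3'UTR site, chr15:102329325-102329354, plus strand: tttctttgtgaatagaaactggatgccaca
Pcbp1, major site, chr6:86474492-86474521, minus strand: aatttaagaATTAAAcaaatggattggtta
Pcbp1, minor site, chr6:86474533-86474562, minus strand: tggaatgttAATAAAtttcagtttagttct
Pcbp3, only site, chr10:76224605-76224634, minus strand: atcagagtttAATAAAtgtcgtgttcctcc
Pcbp4, only site, chr9:106366310-106366339, plus strand: ctgtttttgAATAAAtattctcagcgacca
The intronic pA of Pcbp2 had AATAAA at 39 and at 30 bases before the listed position, and the second of them falls in the printed window. The most used 3'UTR site of Pcbp2 had neither hexamer in the 40 bases before it. The pAs of Pcbp3 and Pcbp4 had AATAAA at 23 and 24 bases. The major pA of Pcbp1 had ATTAAA at 24 bases and its minor pA AATAAA at 24 bases. Over the whole table, AATAAA was found in the 40 bases before 43.3% of the sites in 3'-most exons and 45.1% of the intronic sites. Presence of the hexamer was thus common among listed sites. The number of copies and their positions were not counted over the whole table.

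The intronic pA of Pcbp2 lay 83 bases into intron 5 (chr15:102305123-102309046), and 243 of the 1086 coding bases (22.4%) precede that intron. Read on from exon 5 in frame, the intron gave 15 codons and then a stop whose last base was 35 bases before the pA. A transcript cut there would thus hold an open reading frame of 81 exonic codons and 15 intronic ones. Aligning the coding sequences placed 10 of the 14 introns of Pcbp2 at the same coding position in Pcbp3, and 10 in Pcbp4. Intron 5 of Pcbp2 had its counterpart in intron 7 of Pcbp3 and intron 5 of Pcbp4. The 5′ ends of these introns are shown because the pA of Pcbp2 is so close to its splice donor. Each line has the last 10 bases of the exon in lower case and the first 20 of the intron in capitals.
Pcbp2, intron 5, chr15:102305113-102305142, plus strand: actggaagagGTTTGTTGTACCTTTATGAT
Pcbp3, intron 7, chr10:76260520-76260549, minus strand: gtttgaggagGTAAGGCACAGGTTGGCACG
Pcbp4, intron 5, chr9:106363089-106363118, plus strand: gctggatgagGTCTGTGCCTCTGCGGTGGG
The exon side was alike in the 3 genes. On the intron side Pcbp2 and Pcbp4 opened alike, with GTTTGT and GTCTGT, while Pcbp3 opened with GTAAGG, and the bases after these differed. Intron 5 of Pcbp2 had 3924 bases and 8 AATAAA matches on the sense strand, overlaps counted, the first of them starting at base 44. Intron 7 of Pcbp3 was longer, 7925 bases, and had 5, but its first match started at base 2224. Intron 5 of Pcbp4 had 225 bases and 0 matches. Over all introns, Pcbp2 had 21 matches in 26560 bases (0.791 per kb), Pcbp3 had 93 in 197919 bases (0.47 per kb) and Pcbp4 had 1 in 8136 bases (0.123 per kb). A match is a run of letters, not a used site, and of the 21 in Pcbp2 introns only the 2 named above were followed by a listed pA within 40 bases.

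**Figure D1:**
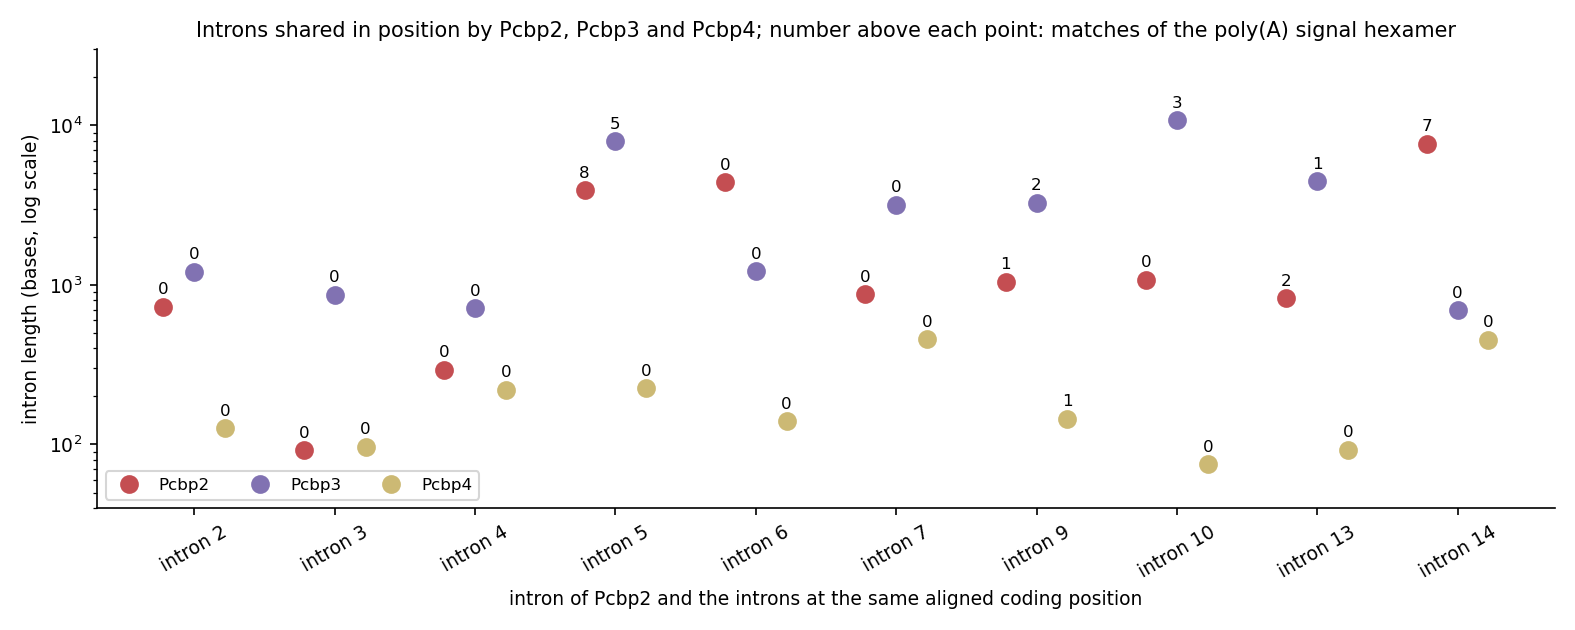
Length in bases (log axis) of the 10 introns that Pcbp2, Pcbp3 and Pcbp4 share in aligned coding position, 1 point per gene and intron, with the number of AATAAA matches above it. At intron 5 the points stand at 3924, 7925 and 225 bases with 8, 5 and 0 matches.

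Pcbp2 was the only member with an intronic pA. It had 6 sites, 1 in intron 5 and 5 in its 3'-most exon. Pcbp1 had 2 sites at the end of its only exon, 5 bases past the annotated end and 41 bases upstream of that. Pcbp3 and Pcbp4 each had 1 site, at 1 and 5 bases past the annotated end of the gene. Listed intronic sites of Pcbp1, Pcbp3 and Pcbp4 numbered 0, where Pcbp1 has no intron that could hold one.

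The depth at which the paralogs were read can be set beside that 0. Pcbp3 had 8167 PASS reads over the 7 libraries, PASS reads being 3'READS reads with non-genomic Ts at their 5' end, each the end of a polyadenylated transcript. Pcbp4 had 16274. At the ratio of intronic to 3'-most exon reads that Pcbp2 had in the same library, Pcbp3 would have held 2978 and 5307 intronic reads in the siPaf1 libraries of batches 1 and 2, and Pcbp4 5066 and 7265. In the siCdc73 libraries the same ratio would give 516 and 1380 reads for Pcbp3 and 987 and 3364 for Pcbp4. At the low siCtrl ratio it would give 25.0 and 21.4 reads for Pcbp3 and 37.0 and 59.9 for Pcbp4. Intronic sites were listed down to a total of 1 read, with a median of 6. The study's methods leave out isoforms under 5% of a gene's isoforms, but do not say whether this shaped the listed sites. A site used only at the siCtrl ratio, where the intronic share of Pcbp2 was 1.90% and 3.12%, would fall under 5%. No upper limit is therefore set from the 0.

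Lack of an intronic site was the usual case for genes like Pcbp3 and Pcbp4. Of 699 genes with at least 10 introns and between 0.5 and 2 times the reads of Pcbp3, 175 (25.0%) had an intronic site. Of 388 such genes around the reads of Pcbp4, 63 (16.2%) had an intronic site. Genes with 1 listed site made up 27.3% and 37.4% of these sets. In this respect Pcbp2 belonged to the smaller share.

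The intronic pA held a few percent of the Pcbp2 reads in siCtrl and siSki8 and over 40% in each siPaf1 and siCdc73 library. Its share was 1.90% (95% Wilson interval 1.11% to 3.22%) and 3.12% (2.35% to 4.14%) in siCtrl of batches 1 and 2. It was 66.3% (64.3% to 68.3%) and 71.1% (70.2% to 72.1%) with siPaf1, and 42.3% (38.9% to 45.7%) and 52.7% (51.1% to 54.2%) with siCdc73. The siSki8 library had 3.62% (2.90% to 4.52%). In siPaf1 the intronic ends therefore outnumbered all other ends of the gene, in siCdc73 they were near parity, and in siSki8 the interval overlapped that of the siCtrl library of its batch. Intervals cover the counting error within 1 library and not the spread between libraries. No molecular identifiers are named for these reads, so copies of the same molecule cannot be told apart.

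In counts-per-million (CPM), PASS reads scaled to the library's total, the intronic pA had 1.76 and 4.69 in siCtrl, 182 and 428 in siPaf1, 65.4 and 148 in siCdc73 and 9.04 in siSki8. Within batches this was 103-fold and 91.3-fold for siPaf1 and 37.2-fold and 31.4-fold for siCdc73. For siSki8 it was 1.93-fold in its only batch. The reads in the 3'-most exon were not lower by such amounts. They were 91.0 and 146 CPM in siCtrl, 92.5 and 174 in siPaf1, 89.4 and 132 in siCdc73 and 240 in siSki8. So the ends behind the coding region stayed within 0.26 on the log2 scale of the siCtrl library of the same batch for siPaf1 and siCdc73, while they were 0.72 higher for siSki8.

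**Figure D2:**
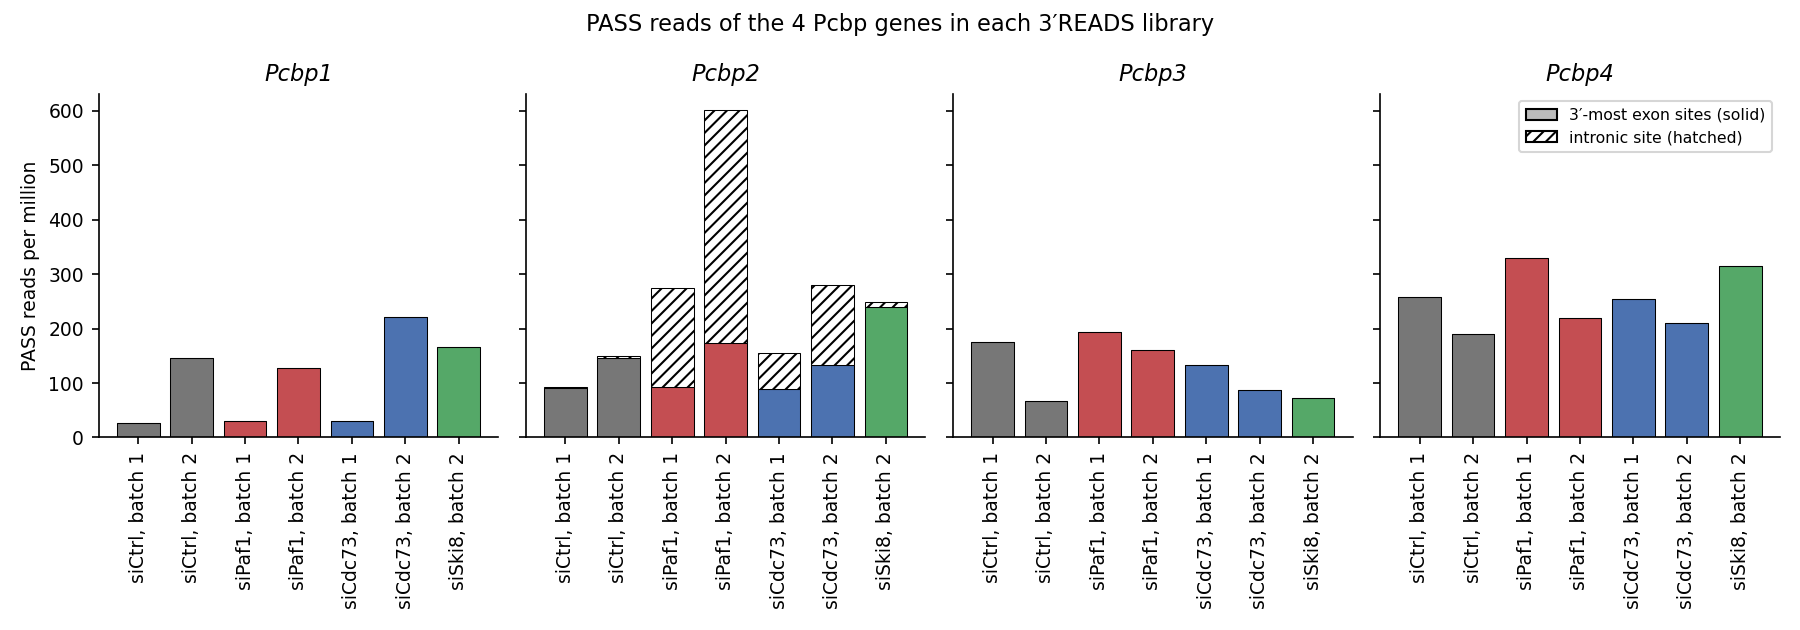
PASS read CPM (bars from 0) of each Pcbp gene in the 7 3'READS libraries, solid for pAs of the 3'-most exon and hatched for the intronic pA. Hatched bars are seen in Pcbp2 alone, where they reach 428 in siPaf1 of batch 2, and Pcbp1 stands near 30 in batch 1 and above 126 in batch 2.

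The log2 ratio of intronic to 3'-most exon reads, with 0.5 added to both, was -5.64 and -4.94 in siCtrl, 0.98 and 1.30 in siPaf1, -0.45 and 0.16 in siCdc73 and -4.72 in siSki8. Against siCtrl of the same batch it was higher by 6.61 and 6.24 in siPaf1, by 5.19 and 5.10 in siCdc73 and by 0.22 in siSki8. The siCtrl libraries themselves differed by 0.70. The difference between siPaf1 and siCdc73 had the same direction in both batches, and the siSki8 difference was smaller than that between the siCtrl libraries.

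The 5 pAs of the 3'-most exon shared out the remaining reads unequally, and the shares shifted with the batch. In order along the gene, the third of them (chr15, position 102329358) held the most, 44.8% and 47.2% of all Pcbp2 reads in siCtrl, and 11.9% and 16.1% in siPaf1, where the total includes the intronic reads. The fifth (position 102330499) held 19.3% and 24.1% in siCtrl and the fourth (position 102330184) 24.4% and 14.2%. The second (position 102329320) held 1.02% in siCtrl of batch 1 and 6.79% in batch 2, and was below 1% in the other batch 1 libraries and between 1.97% and 4.35% in the other batch 2 libraries. The most upstream (position 102329134) held 1.83% to 8.61%. Reads at the third site per read at the fifth, a measure of 3'UTR-APA between a proximal and a distal pA, were 2.33 and 1.96 in siCtrl, 1.56 and 4.88 in siPaf1, 1.88 and 4.28 in siCdc73 and 3.61 in siSki8. Against siCtrl of the batch, siPaf1 and siCdc73 were thus lower in batch 1 (log2 -0.57 and -0.30) and higher in batch 2 (1.32 and 1.13). This pair of 3'UTR sites had no direction common to both batches, whereas the intronic pA had one. Other pairs of 3'UTR sites were not compared in this way.

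**Figure D3:**
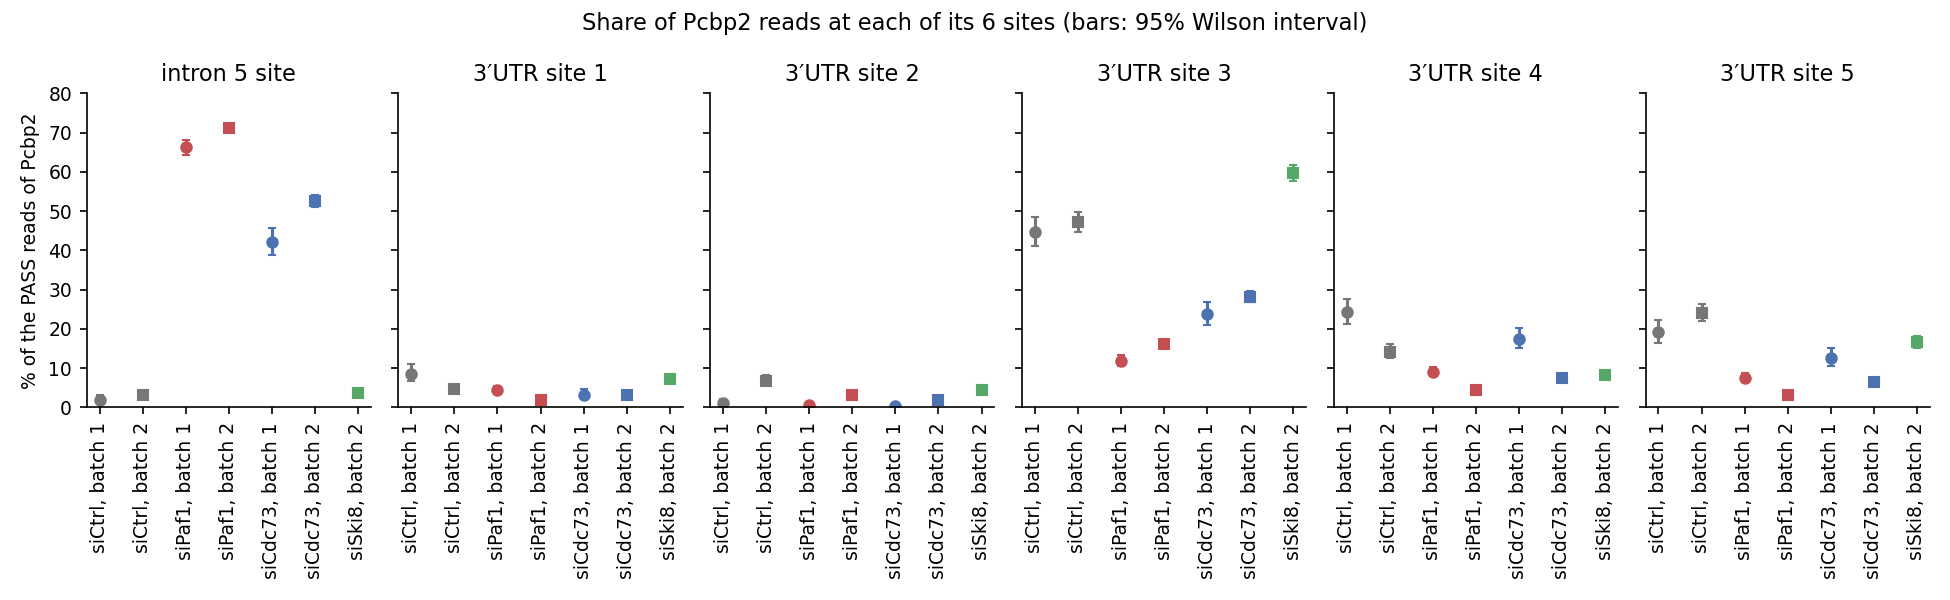
Percent of the Pcbp2 PASS reads at each of its 6 pAs in the 7 libraries (circles batch 1, squares batch 2, bars 95% Wilson intervals), in order along the gene. The intron 5 panel runs from 1.90% in siCtrl to 71.1% in siPaf1, and 3′UTR site 3 has the largest share in siCtrl and siSki8.

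RNA-seq gave a second view of Pcbp2, made from other libraries and counted over the coding region, and it was open to a test. The RPKM of its longest deposited coding model, as the authors scaled it, was 209 and 392 in siCtrl, 258 and 648 in siPaf1, 219 and 336 in siCdc73 and 625 in siSki8. Within batches siPaf1 was 1.24 and 1.65 times siCtrl, and siCdc73 1.05 and 0.86 times, while siSki8 was 0.67 higher on the log2 scale. The siCtrl libraries differed from each other by more than most of these steps. In the fit without a batch term, the log2 change of the counts was 0.58 (95% interval -0.81 to 1.98) for siPaf1, 0.02 (-1.37 to 1.41) for siCdc73 and 1.36 (-0.28 to 3.00) for siSki8, with edgeR adjusted p = 0.689, 0.987 and 0.781. None of the 3 passed an adjusted p of 0.05. Of the 6521 genes tested in that fit, 0 were called in each knockdown (0%), while 1156, 1377 and 361 had an unadjusted p under 0.05 in siPaf1, siCdc73 and siSki8, and DESeq2 called 390, 550 and 5.

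The batch number in the labels pairs the libraries, and intervals were narrower once batch entered as a block. In that fit, Pcbp2 was higher in siSki8 by 0.92 on the log2 scale (0.35 to 1.48, edgeR adjusted p = 0.0469), in the 1 library of that group, and 5.43% of all genes were called. The change was 0.51 (0.06 to 0.95, edgeR adjusted p = 0.0745) in siPaf1, where 32.5% of all genes were called, and 0.06 (-0.38 to 0.51, edgeR adjusted p = 0.840) in siCdc73, where 39.9% were. The siSki8 call rests on 1 library and on a batch difference fitted over siCtrl, siPaf1 and siCdc73 together, and it was lost without the block.

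In all 4 siPaf1 and siCdc73 libraries, the change in coding reads was nearer to that of the 3'-most exon ends than to that of all ends. All PASS reads of Pcbp2 came to 92.7 and 150 CPM in siCtrl, 275 and 602 in siPaf1 (log2 changes of 1.57 and 2.00 within batches) and 155 and 280 in siCdc73 (0.74 and 0.90). The log2 change of RPKM within batches was 0.31 and 0.73 for siPaf1 and 0.07 and -0.22 for siCdc73, beside 0.02 and 0.26 and -0.03 and -0.14 for the 3'-most exon ends. In the siSki8 library RPKM changed by 0.67 and 3'-most exon ends by 0.72. A transcript that ends in intron 5 would add reads over 22.4% of the coding bases only. These values are set side by side without a test, since the 3'READS values of Pcbp2 chose the family.

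The deposited transcripts of Pcbp2 also bear on its splicing. The models with and without exon 12 (39 bases) had the same count in every library, so 0 reads were assigned to that exon. Reads were mapped with Bowtie2 in local mode, and how well that places reads in such short exons was not tested. The models with and without exon 9 (93 bases, by a length difference of 8.54% in RPKM) differed by 153 and 83 reads in siCtrl. As a share of all coding reads this was 3.79%, 3.24% and 4.18% in siCtrl, siPaf1 and siCdc73 of batch 1, and 1.25%, 1.16%, 1.16% and 1.06% in siCtrl, siPaf1, siCdc73 and siSki8 of batch 2. The batch 1 intervals lay between 2.77% and 4.84% and the batch 2 intervals between 0.85% and 1.59%. The share of exon 9 thus divided the libraries by batch, with overlapping intervals among the libraries of a batch, and the part of library preparation in it was not tested.

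Pcbp1, the intronless member, was read at a level that depended on the batch more than on the siRNA. It had 26.9, 30.1 and 30.7 PASS CPM in siCtrl, siPaf1 and siCdc73 of batch 1. In batch 2 it had 146, 127, 221 and 167 in siCtrl, siPaf1, siCdc73 and siSki8. The siCtrl libraries differed by 2.44 on the log2 scale, a larger difference than 95.9% of the 9967 genes compared had. Against siCtrl of the batch, siPaf1 was 0.16 higher and then 0.20 lower, and siCdc73 was 0.19 and 0.60 higher. With the block, the log2 change was -0.12 (-0.72 to 0.49) in siPaf1, 0.52 (-0.08 to 1.12) in siCdc73 and 0.19 (-0.57 to 0.95) in siSki8, with edgeR adjusted p = 0.811, 0.209 and 0.916. Without it the intervals spanned over 5 log2 units each.

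The pair of Pcbp1 sites also split by batch. The minor site (position 86474529) held 10.6%, 12.3% and 12.3% of the reads in siCtrl, siPaf1 and siCdc73 of batch 1, with intervals from 7.01% to 18.2%. In batch 2 it held 2.59%, 1.88%, 2.18% and 3.83% in siCtrl, siPaf1, siCdc73 and siSki8. In CPM the minor site ran from 2.84 to 3.77 in batch 1 and from 2.39 to 6.39 in batch 2. The major site (position 86474488) ran from 24.1 to 27.0 in batch 1 and from 125 to 216 in batch 2. Usage of the minor site against the major one gave log2 changes of -0.09, -0.04 and -0.46 for siPaf1, siCdc73 and siSki8 (edgeR adjusted p = 1.0 for each) and 0.77 for siSki8 with the block (-0.60 to 2.14, edgeR adjusted p = 0.944). None of the 3 was called with or without the block, by edgeR or DESeq2, and none had an unadjusted p under 0.05. Of all sites, 20152 in number, 0% were called without the block in each knockdown, and with it 6.14% in siPaf1, 5.85% in siCdc73 and 0.00992% in siSki8.

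Pcbp3, the longest gene of the 4, was read in all libraries from its single pA. It had 175 and 67.7 PASS CPM in siCtrl, 194 and 161 in siPaf1, 133 and 86.4 in siCdc73 and 72.7 in siSki8. Its highest siPaf1 excess came in batch 2, a log2 change of 1.25, against 0.15 in batch 1. In siCdc73 the changes were -0.39 and 0.35, so the direction differed between batches. With the block the log2 change was 0.58 (-0.07 to 1.23) in siPaf1, 0.04 (-0.61 to 0.68) in siCdc73 and -0.25 (-1.10 to 0.61) in siSki8, with edgeR adjusted p = 0.199, 0.968 and 0.891. The siCtrl libraries differed by -1.37, more than 81.8% of genes did.

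Pcbp4, known for arrest of the cell cycle and apoptosis when overexpressed, had the smallest difference between siCtrl libraries of the 4, a log2 value of -0.45. It had 259 and 189 PASS CPM in siCtrl, 329 and 220 in siPaf1, 254 and 211 in siCdc73 and 315 in siSki8. In siPaf1 it was 0.35 and 0.21 higher on the log2 scale than siCtrl of the batch. In siSki8 it was 0.74 higher, close to the 0.72 of the 3'-most exon ends of Pcbp2 in that library. With the block the log2 change was 0.18 (-0.38 to 0.74) in siPaf1, 0.16 (-0.40 to 0.72) in siCdc73 and 0.73 (0.02 to 1.44) in siSki8, with edgeR adjusted p = 0.669, 0.712 and 0.419.

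Of the 9 tests of Pcbp1, Pcbp3 and Pcbp4, 0 passed an adjusted p of 0.05 without the block, with it, or by DESeq2. At an unadjusted p under 0.05 there were 0 without the block, 1 with it (Pcbp4 in siSki8) and 0 by DESeq2. Among all 12579 genes, edgeR called 0% without the block in each knockdown. With the block it called 18.8% for siPaf1, 22.5% for siCdc73 and 0.151% for siSki8. Even the blocked intervals were wide, -0.38 to 0.74 for Pcbp4 in siPaf1 for example, and changes within them were not detectable at this spread.

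**Figure D4:**
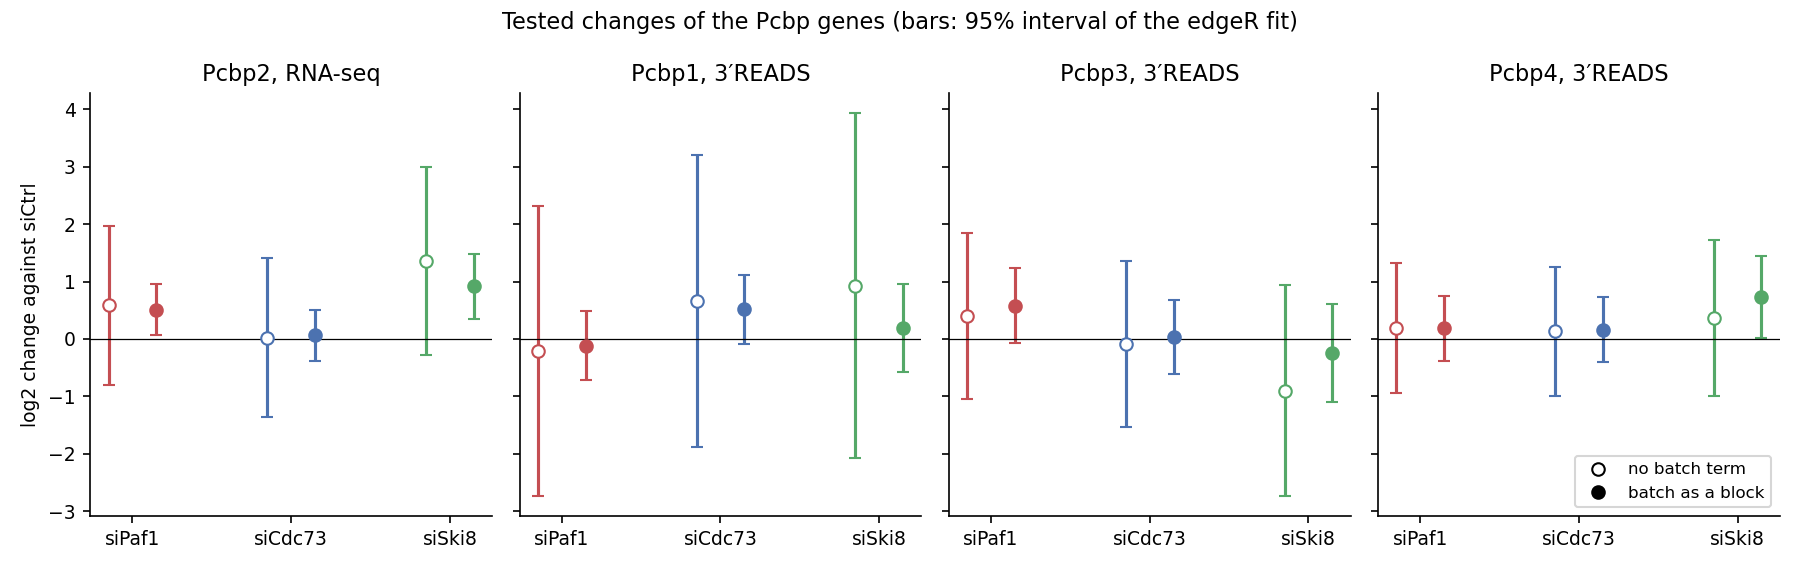
Log2 change against siCtrl for each knockdown, with the 95% interval of the edgeR fit, for Pcbp2 in RNA-seq and for Pcbp1, Pcbp3 and Pcbp4 in 3'READS (open points without a batch term, filled points with a batch block). The filled intervals are narrower throughout, and those off 0 are Pcbp2 in siPaf1 (0.06 to 0.95) and siSki8 (0.35 to 1.48) and Pcbp4 in siSki8 (0.02 to 1.44).

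PASS reads count transcript ends and do not scale with gene length, so the members can be ranked within a library. In siCtrl of batch 1 the order was Pcbp4, Pcbp3, Pcbp2 and Pcbp1, and in batch 2 it was Pcbp4, Pcbp2, Pcbp1 and Pcbp3. Only Pcbp4 kept its rank, and Pcbp2 and Pcbp1 in batch 2 stood at 150 and 146 CPM, closer than the batch 1 and batch 2 values of any member in any group. Pcbp2 was highest in siPaf1 and siCdc73 of batch 2, where its intronic ends were counted, and second to Pcbp4 in the batch 1 libraries of both knockdowns. The other places in the order changed between batches and are not distinguished beyond that spread.

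The genes whose isoform ratio was most like that of Pcbp2 were Utp6, Col12a1, Mex3c, Ell2 and Nedd4. Likeness was the Euclidean distance over 7 libraries between log2 ratios of upstream (intronic and internal exon) to 3'-most exon reads, each gene minus its own mean and without sites under 5% of its reads, among 1765 other genes. The distances were 1.36, 1.65, 1.78, 1.81 and 2.34, against a median of 7.35. Utp6, of the ribosome-producing small subunit processome, had a ratio of -8.12 and -8.34 in siCtrl, -2.29 and -0.95 in siPaf1, -3.46 and -2.28 in siCdc73 and -6.62 in siSki8. On the same measure Pcbp2 had -5.49 and -4.76, 1.21 and 1.57, -0.36 and 0.32, and -4.54. Mex3c, a KH-domain ubiquitin ligase, had -3.54 and -3.82 in siCtrl, 1.40 and 2.31 in siPaf1, 0.61 and 1.06 in siCdc73 and -4.95 in siSki8. In each of the 6 genes, both siPaf1 and both siCdc73 libraries lay above all siCtrl and siSki8 libraries, a pattern that the choice by distance itself favours.

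**Figure D5:**
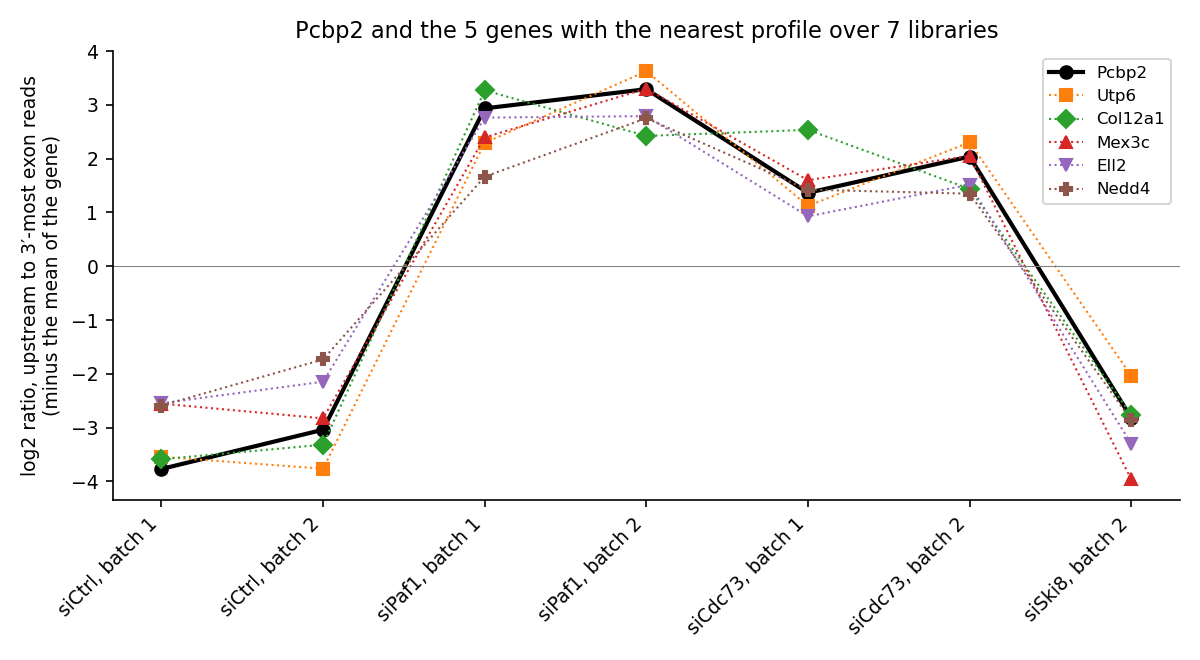
Log2 ratio of upstream to 3'-most exon reads, minus the mean of each gene, in the 7 libraries for Pcbp2 (solid line) and the 5 genes nearest to it (dotted lines). All 6 lines are above 0 in the siPaf1 and siCdc73 libraries and below 0 in siCtrl and siSki8.

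Other KH-domain genes give the wider family for Pcbp. Of 36 listed genes, 14 were tested in RNA-seq, 31 in 3'READS and 3 for CDS-APA, the balance of upstream and 3'-most exon ends. In the gene counts of both assays 0 were called without the block. With it, RNA-seq called 1 of 14 in siPaf1, 5 in siCdc73 and 1 in siSki8, beside 32.5%, 39.9% and 5.43% of all genes, and 3'READS called 7 of 31, 3 and 0, beside 18.8%, 22.5% and 0.151%. The calls in the list were thus no more frequent than over all genes, apart from 1 of 14 for siSki8 in RNA-seq and 7 of 31 for siPaf1 in 3'READS, which were near that share. Every siSki8 call in either list rests on 1 library. In these blocked fits Fmr1, the fragile X gene, fell in siCdc73 in both assays, by 1.42 (edgeR adjusted p = 2.31e-05) and 1.04 (edgeR adjusted p = 0.0275) on the log2 scale. In RNA-seq, Igf2bp3 fell by 2.07 in siPaf1 (edgeR adjusted p = 0.0101), Fxr2 and Krr1 rose by 0.64 and 0.68 in siCdc73 (edgeR adjusted p = 0.0189 and 0.0219), and Pno1 was 1.08 higher in the 1 siSki8 library (edgeR adjusted p = 0.0464). In 3'READS, siPaf1 lowered Fubp3 and Qk by log2 changes of -1.97 and -2.91 and raised Mex3a and Tdrkh by 2.24 and 1.45, and in siCdc73 Pno1 was at -1.23 and Pnpt1 at 0.83. The blocked medians of the list were 0.12, -0.12 and 0.31 in RNA-seq and 0.01, -0.05 and 0.06 in 3'READS for siPaf1, siCdc73 and siSki8, beside 0.02, -0.02 and 0.02 and 0.08, -0.02 and -0.05 over all genes tested. Without the block the list medians were 0.12, -0.11 and 0.39 in RNA-seq and 0.13, -0.11 and 0.36 in 3'READS.

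Among the 3 KH-domain genes with both isoform classes, Mex3c was called for CDS-APA. Its upstream share was higher in siPaf1 without the block, where 2.27% of all 1766 genes were called, and with it in siPaf1 (log2 5.98, edgeR adjusted p = 2.68e-05) and siCdc73 (4.90, edgeR adjusted p = 0.000729), where 23% were called for each, beside 0.0566% in siSki8. Without the block the calls were 3.57% of genes in siCdc73 and 0% in siSki8, with 0 KH-domain genes in either. These unblocked counts changed when single libraries were left out. The 40 genes called in siPaf1 became 1 and 2 without siCtrl of batch 1 and of batch 2, and the 63 in siCdc73 became 2, 2, 2 and 3 without siCtrl of batch 1 or 2 or siCdc73 of batch 1 or 2, and 114 and 118 without siPaf1 of batch 1 or 2. On the same scale, the fitted change of Pcbp2 was 6.52 in siPaf1, 5.11 in siCdc73 and 0.59 in siSki8, given without a test.

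Iron handling genes, chosen around the iron chaperone role of the family, made a second list of 20 with the antiviral adaptor Mavs and its ligase Itch. Of these, 13 were tested in RNA-seq and 20 in 3'READS. Without the block 0 were called. With it RNA-seq called 8 of 13 in siPaf1 (4 higher, 4 lower), beside 32.5% of all genes. In siCdc73 it called 5 (4 higher, 1 lower), beside 39.9%. From 3'READS 3 of 20 were called in siPaf1 and 6 in siCdc73, beside 18.8% and 22.5%. The 8 of 13 was a larger share than over all genes, and the other shares were nearer to it. Whether that excess is particular to the list was not tested. Calls for siSki8 rest on 1 library and are not counted here. The changes named here are those of the fit with the block. Fth1, the ferritin heavy chain to which Pcbp1 delivers iron, had 2518 and 6231 CPM in RNA-seq of siCtrl, 6889 and 9576 in siPaf1, 8055 and 16308 in siCdc73 and 8964 in siSki8. It rose by 1.03 and 1.70 on the log2 scale in siPaf1 and siCdc73 (edgeR adjusted p = 0.000372 and 3.48e-07) and was 0.96 higher in the 1 siSki8 library (edgeR adjusted p = 0.0285). The transferrin receptor Tfrc rose by 0.96 in siPaf1 in RNA-seq (edgeR adjusted p = 0.0021) and by 1.73 and 1.68 in siPaf1 and siCdc73 in 3'READS (edgeR adjusted p = 0.00217 and 0.00212). It also rose by 1.34 in siCdc73 in RNA-seq (edgeR adjusted p = 3.6e-05), a value named after it was seen, and was 1.53 higher in the 1 siSki8 library (edgeR adjusted p = 0.00163). The iron exporter Slc40a1 rose by 2.69 in siCdc73 and the ferrireductase Steap3 fell by 2.09 in siPaf1 and by 1.50 in siCdc73 in RNA-seq, and Slc39a14, a zinc and iron importer, fell by 0.76 in siPaf1. In 3'READS Mavs fell by 0.93 in siPaf1 and by 1.79 in siCdc73, and the iron chaperone partner Bola2 fell by 0.99 in siPaf1. The blocked medians of the list were -0.34, 0.24 and 0.17 in RNA-seq and 0.18, 0.11 and 0.20 in 3'READS, beside the medians over all genes given above. Without the block they were -0.35, 0.25 and -0.15 in RNA-seq and 0.15, 0.11 and 0.31 in 3'READS, so the sign for siSki8 in RNA-seq turned with the block. Itch was the only gene of this list with both isoform classes. Its upstream share was called higher with the block in siPaf1 (6.92, edgeR adjusted p = 0.00122) and siCdc73 (5.90, edgeR adjusted p = 0.0197), but not without it. Its log2 ratios were -5.04 and -8.22 in siCtrl, -1.22 and -2.66 in siPaf1, and 0.51 and -8.11 in siCdc73. The siCdc73 call thus rests on batch 1, since batch 2 was near siCtrl of its batch. In the 1 siSki8 library the ratio was -5.06 and the fitted change 5.39, so fitted sizes at ratios this low are uncertain.

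The knockdowns and the cells were checked in the same tables. Each siRNA target was lowest in its own library within the batch in both assays, Paf1 at 16.7% to 19.5% of siCtrl, Cdc73 at 9.72% to 28.8% and Wdr61 at 3.82% and 6.48%. The myoblast genes Des, Cdh15 and Chrna1 had at least 328 CPM in every RNA-seq library, and Myf5 at least 34.1, while Myf6 reached at most 10.6. In 3'READS Des ran from 515 to 1835 PASS CPM, Cdh15 from 32.1 to 706, Chrna1 from 123 to 351 and Myf5 from 7.18 to 36.2. Myod1 reached at most 0.597 PASS CPM and was not listed in RNA-seq. Of the neuron markers, Rbfox3, Snap25 and Syt1 stayed below 1 CPM in both assays where listed, and Tubb3 had 73.4 to 651 PASS CPM. Of the muscle differentiation markers, Ckm and Tnnt3 stayed below 37 CPM in both assays, and in 3'READS Myog ran from 1.89 to 14.9, Acta1 from 5.85 to 57.0 and Myh3 from 11.1 to 190. Whether these move with a member of the family was not tested.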

How the data were processed

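C2C12 libraries of RNA-seq and 3'READS were analysed, 7 per assay, grouped by the labels. Per the labels and the study's methods, Bowtie2 (local mode, mm9) was used for mapping. From unique alignments the authors deposited raw counts, per pA for 3'READS (PASS reads) and per RefSeq transcript over coding regions for RNA-seq, with RPKM values that the authors scaled by length and by mapped reads. Versions are not given in the sources used here. Totals were 2796693 to 8160386 reads in RNA-seq (1 transcript per gene) and 5302728 to 14340927 in 3'READS, with siPaf1 and siCdc73 of batch 2 the shallowest in RNA-seq. Per-sample columns without a sample numbered 0.

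Counts were tested in R 4.3.3 with edgeR 4.0.16 (quasi-likelihood), without a batch term as in the study. Benjamini-Hochberg adjustment ran over all genes or sites, and DESeq2 1.42.0 was an alternative. Gene counts were fitted with TMM and filterByExpr, while CDS-APA and site usage were scaled by library totals without either. A prior count of 2 entered only the log CPM behind the batch correlations given below. The RNA-seq transcript with the highest mean count stood for its gene. All libraries entered each fit, and the siSki8 library, which stands alone, took its spread from the replicated groups. CDS-APA and site usage were fitted as isoform by knockdown interactions where genes averaged 20 reads or more per library, CDS-APA after leaving out sites under 5% of the gene's reads and site usage for sites with a mean of at least 5. The study's own call by fold and Fisher's test was not used because it leaves out the spread between libraries. The batch number of the labels pairs libraries: deviations correlated across genes with r of 0.62, 0.748 and 0.633 in RNA-seq and 0.433, 0.61 and 0.432 in 3'READS, so blocked values are printed where they change a call.

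Gene models and sequences came from the mm9 genome and GENCODE vM1 with Python 3.11.15 and Biopython. Fits were tested on simulated counts without a batch effect, so those runs do not show what could be detected at the spread of these libraries. The members and gene lists were chosen with earlier results of these data known. Named genes were the members, the siRNA targets, at most 2 genes per list, direction, knockdown and assay with the smallest blocked adjusted p that changed the same way in each batch, and the 5 nearest to Pcbp2 by isoform ratio. ChIP-seq files were not used here.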

Additional observations from a re-analysis of the deposited data

How the results depend on the processing

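Of the 15 tested values of the members, over 162 alternatives, 1 passed the threshold: Pcbp2 in RNA-seq of siSki8 with the batch as a block (log2 0.92), which the pairing by batch calls. The sign was the same in all others except these. Pcbp2 in RNA-seq of siCdc73 was -0.16 with scaling by library size alone. Pcbp3 in siCdc73 was 0.037, and the minor Pcbp1 site in siSki8 0.77, with the replicate block. Leaving out 1 library gave -0.30 to 1.16, -0.40 to 0.59 and 0.92 to 1.94 for Pcbp2 in RNA-seq of siPaf1, siCdc73 and siSki8. It gave -1.44 to 1.26 and -1.22 to 2.13 for Pcbp1 in siPaf1 and siCdc73 of 3'READS, -0.20 to 1.42, -0.69 to 0.94 and -1.50 to 0.13 for Pcbp3 in siPaf1, siCdc73 and siSki8, and -0.25 to 0.58 and -0.18 to 0.53 for Pcbp4 in siPaf1 and siCdc73. For the minor Pcbp1 site it gave -1.51 to 1.36, -1.30 to 1.35 and -1.57 to 0.58. The cause was not tested.

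The described CDS-APA change of Pcbp2 was 6.16 to 6.93 in siPaf1 and 4.75 to 5.51 in siCdc73 with 1 library left out. Its 3'UTR-APA change turned to -0.45 and -0.18 without batch 2 of siPaf1 and siCdc73, with ranges of -0.45 to 1.20 and -0.18 to 1.00.

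Calls in the gene counts of both assays and in site usage were 0 in the fit without the block, while CDS-APA called 40 genes in siPaf1 and 63 in siCdc73. For siPaf1, siCdc73 and siSki8 the replicate block called 2122, 2601 and 354 genes in RNA-seq, 2367, 2832 and 19 in 3'READS and 1238, 1178 and 2 sites. DESeq2 called 390, 550 and 5 genes in RNA-seq, 496 and 711 in 3'READS for siPaf1 and siCdc73, and 298 and 340 sites. Without a filter on low counts, RNA-seq called 149, 225 and 1 and 3'READS 20 and 22 for siPaf1 and siCdc73. With 1 library left out, RNA-seq of siPaf1 called 0 to 34, the higher counts being 11 and 34 without siCdc73 of batch 1 and of batch 2. For CDS-APA of siPaf1 and siCdc73 the replicate block called 407 genes each, DESeq2 193 and 220, the count with all sites kept 30 and 35, and leaving out 1 library 1 to 44 and 2 to 118. DESeq2 left the adjusted p of some genes undefined, and these were not counted.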
